A study of Mus musculus with 22 samples.

Results

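The circadian clock genes described here are 10 transcripts of the core loop and its first output layer: Dbp, Tef, Hlf, Per1, Per2, Per3, Cry2, Arntl, Nr1d1 and Nr1d2. They were taken by symbol from a table of 23359 genes, and all 10 were present. Because they were picked with their levels in these libraries known, their levels and differences are given as description, without a test. Tests were kept for 33 other genes of the pathway. Messenger RNA had been sequenced in 22 libraries from heart cells of male wild-type C57BL/6 mice aged 10 to 14 weeks. Fibroblasts of the heart were taken at 3 and at 10 days of TAC (n = 3 each), at 5 days of MI (n = 2), at 4 and at 10 days of swimming (n = 3 each), at 3 days of sham surgery (n = 2), and from sedentary mice (n = 3). Cardiomyocytes came from sedentary mice only (n = 3). TAC is read here as transverse aortic constriction, a pressure overload of the left ventricle, and MI as myocardial infarction, since the labels give the abbreviations alone. No sham group was available at 10 days or for MI, so those groups and the swimmers are set against sedentary fibroblasts and share the same sedentary libraries. The labels do not say whether the libraries of a group came from separate mice, so any p-value below measures the spread between these samples, which may be technical.

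In mammalian cells the clock is a feedback loop of transcription. ARNTL, also called BMAL1, pairs with CLOCK and activates genes through E-boxes, among them the Per and Cry genes, whose products return to the nucleus and block that pair. NR1D1 and NR1D2 (REV-ERB alpha and beta) are nuclear receptors that repress Arntl through ROR elements, where the ROR receptors activate it. DBP, TEF and HLF are the PAR bZIP factors, which carry the rhythm to output genes through D-boxes, and NFIL3 represses through the same sites. The heart has such a clock in its own cells, and Arntl transcripts peak at about the opposite phase to those of Dbp and the Per genes. The labels give no hour at which hearts were taken, so every level below belongs to an unknown hour of the cycle, and whether the hour differed between groups was not tested.

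Some promoters of these genes hold the letters of an E-box or a D-box, and the 4 windows with such a match are shown. RefSeq promoter sequences (GRCm38.p6) matched 9 of the 10 genes, in 12 windows of 250 bases ending at a transcript start, for which Per2 is named only. Capitals mark the E-box CACGTG in Tef and Per1 and the D-box TTATGTAA in Per3.
Tef, start 1, chr15:81802423-81802672, plus strand: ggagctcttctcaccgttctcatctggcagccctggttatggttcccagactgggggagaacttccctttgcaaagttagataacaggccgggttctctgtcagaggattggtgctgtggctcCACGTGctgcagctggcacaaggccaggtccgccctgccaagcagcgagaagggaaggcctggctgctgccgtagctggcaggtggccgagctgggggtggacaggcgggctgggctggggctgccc
Tef, start 2, chr15:81811164-81811413, plus strand: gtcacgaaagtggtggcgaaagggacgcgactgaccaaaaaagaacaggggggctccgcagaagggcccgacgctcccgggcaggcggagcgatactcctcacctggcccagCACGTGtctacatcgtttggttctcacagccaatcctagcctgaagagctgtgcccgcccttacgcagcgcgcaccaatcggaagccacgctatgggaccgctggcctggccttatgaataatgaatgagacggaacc
Per1, start 1, chr11:69098699-69098948, plus strand: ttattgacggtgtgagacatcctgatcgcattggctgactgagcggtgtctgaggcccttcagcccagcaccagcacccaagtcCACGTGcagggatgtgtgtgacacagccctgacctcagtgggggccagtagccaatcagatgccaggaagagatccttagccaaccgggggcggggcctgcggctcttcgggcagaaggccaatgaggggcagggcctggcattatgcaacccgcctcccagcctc
Per3, chr4:151044666-151044915, minus strand: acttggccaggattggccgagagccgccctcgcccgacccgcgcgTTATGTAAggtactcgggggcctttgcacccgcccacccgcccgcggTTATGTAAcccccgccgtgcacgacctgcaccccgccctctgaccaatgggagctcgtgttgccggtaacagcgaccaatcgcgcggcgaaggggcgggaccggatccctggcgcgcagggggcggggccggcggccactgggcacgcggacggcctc
The first base of the E-box stood at position -127 from the first Tef start, at -138 from the second and at -166 from the Per1 start. The 2 D-boxes of Per3 began at positions -205 and -158. CACGTG, which reads the same on both strands, was found in 3 of the 12 windows, against 6.02% of 32851 windows of the same length from all promoters. D-boxes were searched on both strands as TTATGTAA and TTACGTAA and were found in 1 of the 12 windows, against 0.931% of all. The ROR core, searched on both strands as TAGGTCA and TGGGTCA, was found in 0 of the 12 and in 5.38% of all, which says only that these letters are not in these windows. The sequences are a description and name no bound site.

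Expression was given as FPKM, fragments per kilobase of transcript, scaled to the size of the library. It still fell with transcript length, as given below, so levels of genes of unlike length are not directly comparable. Absolute depth is unknown, since the table holds no counts. The deposited lower confidence bound was 0 for all 220 member values, and the upper bound lay between 2.40 and 14.9 times the value (median 2.51), so the spread between libraries is used as the error. Per2 and Per3 stayed under the filter of 1 FPKM in 2 libraries, and 8 of the 10 genes entered the fit across all genes. The 12 TAC and swim libraries stood apart from the 7 sedentary, sham and MI fibroblast libraries. Expression fell by 0.505 to 0.847 log2 units per doubling of transcript length in those 12, by 0.594 to 0.680 in cardiomyocytes, and by 0.178 to 0.294 in those 7. Differences are therefore also given after a correction that takes a smooth curve of expression on transcript length and GC content out of each library, called length correction below. The 6 cardiomyocyte markers summed to between 9511 and 12447 FPKM in cardiomyocytes and between 39.2 and 474 in fibroblast libraries, and the 6 fibroblast markers to between 51.1 and 102 in cardiomyocytes and between 536 and 1597 in fibroblasts. The labelled cell types therefore carried their defining markers. Of all markers of both types, none was at 0 in any library. Dbp overlaps Sphk2 on the opposite strand and Nr1d1 overlaps Thra on the opposite strand. The libraries were stranded, but whether strand was used in counting is not given in the sources used here. In bulk libraries, fewer cells of a type and less RNA per cell cannot be told apart.

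Among the output factors, Dbp had the widest range of all 10 genes across groups. Its mean level was 5.67 ± 2.60 FPKM 3 days and 17.3 ± 8.25 FPKM 10 days after TAC, 1.07 ± 0.794 after MI, 29.5 ± 17.6 after 4 days and 29.0 ± 8.82 after 10 days of swimming, 3.52 ± 0.253 after sham, 10.5 ± 8.52 in cardiomyocytes and 5.05 ± 4.63 in sedentary fibroblasts (SD, n = 3, and n = 2 for MI and sham). In the order of these means every group overlapped the next one except sham and MI, so neighbouring ranks did not differ beyond their spread. Tef followed a like order, with 7.40 ± 1.33 FPKM after 10 days of swimming at the top and 2.46 ± 0.773 FPKM after MI at the bottom. Hlf had its highest mean, 3.24 ± 0.687 FPKM, after 10 days of swimming and its lowest, 0.360 ± 0.242 FPKM, after MI. All 3 PAR bZIP genes thus had a swim group at the top and MI at the bottom.

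Among the repressors the order was another. Per1 and Per2 were highest after sham, at 1.51 ± 0.0608 and 1.12 ± 0.197 FPKM, and Per3 was highest in cardiomyocytes at 0.254 ± 0.0938 FPKM. Per1 was lowest after MI, at 0.801 ± 0.110 FPKM. Per2 and Per3 were lowest 3 days after TAC, at 0.190 ± 0.0580 and 0.0394 ± 0.0104 FPKM. Cry2 stayed within a narrow band, with a highest mean of 3.01 ± 0.151 FPKM after 10 days of swimming and a lowest of 1.38 ± 0.143 FPKM in cardiomyocytes. Nr1d1 had means between 18.5 ± 1.26 FPKM 10 days after TAC and 7.31 ± 4.02 FPKM after MI. Its relative Nr1d2 had its 2 lowest means in the TAC groups, 4.85 ± 0.891 FPKM at 3 days and 4.60 ± 1.22 FPKM at 10 days, and its highest, 11.3 ± 1.39 FPKM, in sedentary fibroblasts. Arntl, the activator, ran against Dbp, with 4.42 ± 2.19 FPKM after MI at the top, 1.04 ± 1.05 FPKM after 4 days of swimming the lowest fibroblast mean, and 0.487 ± 0.359 FPKM in cardiomyocytes at the bottom.

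**Figure D1:**
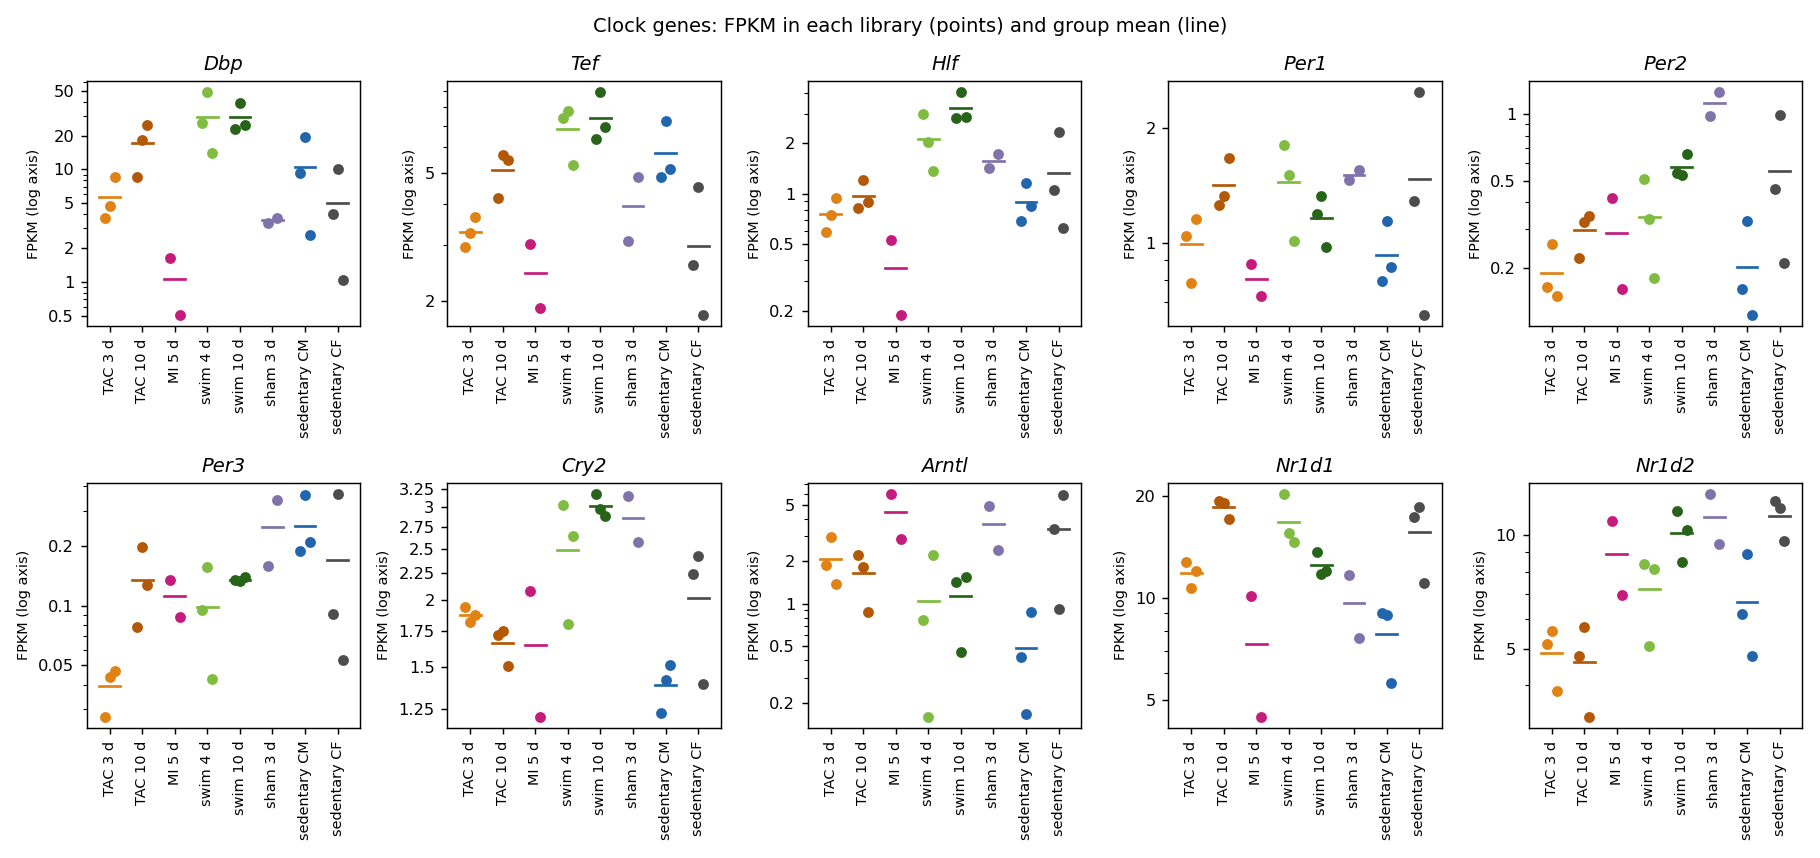
Levels of the 10 clock genes in FPKM on log axes, with a point for each library and a line at the group mean, for the 8 groups. Dbp, Tef and Hlf sit highest in the swim groups and lowest after MI, while Arntl is highest after MI and Nr1d2 is low in both TAC groups.

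The sedentary mice alone spanned much of these ranges. In sedentary fibroblasts Dbp was at 4.00 FPKM in library 1, 10.1 in library 2 and 1.04 in the library titled wt, a 9.73-fold range. Arntl ran the other way, at 3.36, 0.924 and 5.82 FPKM in the same order, a 6.31-fold range. Per3 spanned 6.90-fold, Per2 4.67-fold, Per1 3.84-fold and Hlf 3.72-fold, whereas Nr1d1 spanned 1.68-fold and Nr1d2 1.27-fold. The sham libraries held Dbp within 1.11-fold, at 3.35 and 3.70 FPKM.

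Cardiomyocyte libraries carry the same marks in their titles, and Dbp, Arntl and Per2 had the same order of marks in both cell types. Dbp was at 9.28 FPKM in cardiomyocyte library 1, 19.5 in library 2 and 2.63 in the wt library, so that library 2 was highest and the wt library lowest in both cell types. Arntl was at 0.421, 0.166 and 0.874 FPKM in the same cardiomyocyte libraries, with library 2 lowest and the wt library highest, again as in fibroblasts. The levels of Tef, Hlf, Per1, Per2 and Per3 were highest in library 2 in both cell types, but for Tef, Hlf, Per1 and Per3 the lowest was the wt library in fibroblasts and library 1 in cardiomyocytes. Cry2, Nr1d1 and Nr1d2 did not share a full order, though the wt library was lowest in both cell types for Nr1d1 and Nr1d2. For Cry2 the wt library had the lowest level of the fibroblasts and the highest of the cardiomyocytes. Titles alone mark these libraries, and the labels do not say that fibroblasts and cardiomyocytes of one mark came from the same mice.

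**Figure D2:**
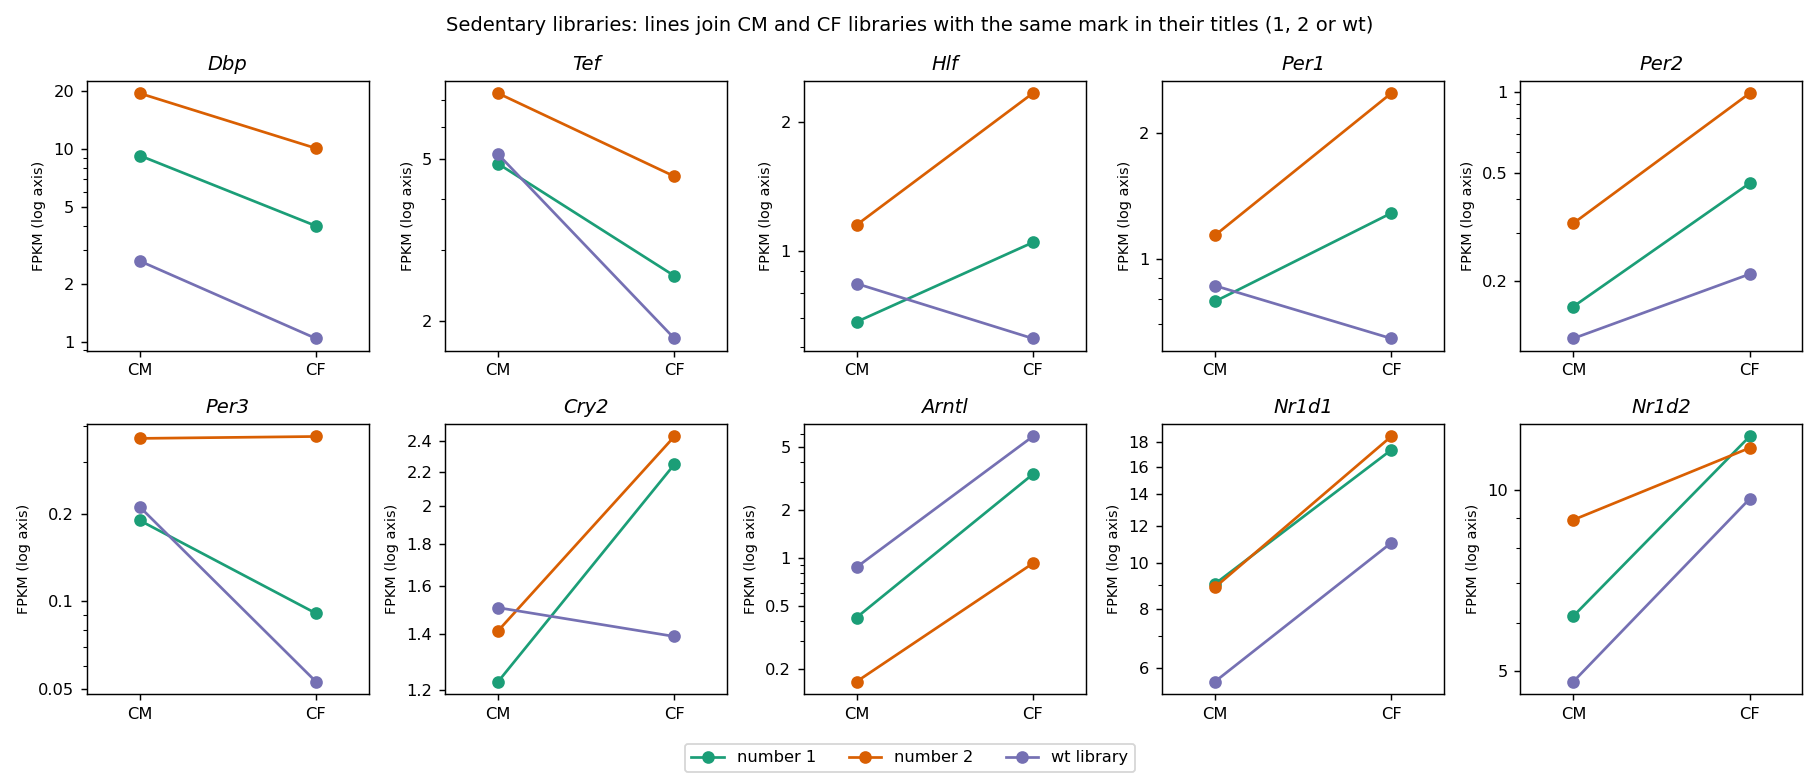
Levels of the 10 genes in FPKM on log axes in sedentary cardiomyocytes (CM) and cardiac fibroblasts (CF), with lines joining libraries that carry the same mark in their titles. Library 2 is highest for Dbp, Tef, Hlf, Per1, Per2 and Per3 in both cell types, and lowest for Arntl in both.

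The titles of 4 of the 22 libraries carry a date: both MI libraries and the wt library of each cell type. This split was seen after the levels were known. These 4 held the 4 lowest Dbp levels of all, between 0.506 and 2.63 FPKM, against 3.35 to 48.6 FPKM in the 18 libraries without a date. Arntl was between 0.874 and 5.97 FPKM in them (median 4.35), against 0.160 to 4.89 FPKM in the others (median 1.49). For no other member did the dated libraries hold the 4 lowest or the 4 highest levels. From the lowest, their ranks were 1, 2, 4 and 8 for Hlf and 1, 2, 5 and 6 for Per1. Nr1d1 had ranks 1, 2, 6 and 8 in them, and Tef ranks 1, 2, 5 and 13. Cry2 had ranks 1, 3, 6 and 13, and Per2 ranks 1, 3, 7 and 14. Per3 had ranks 5, 7, 13 and 19, and Nr1d2 ranks 4, 10, 16 and 18. Arntl had ranks 6, 17, 21 and 22. The wt libraries share a date and the MI libraries share another, and what the dates record is not stated.

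After 4 and 10 days of swimming the PAR bZIP genes were higher than in sedentary fibroblasts, Dbp most of all. Dbp was at 25.9, 48.6 and 13.85 FPKM after 4 days and at 23.0, 39.1 and 24.9 FPKM after 10 days, against 4.00, 10.1 and 1.04 FPKM in sedentary fibroblasts. Each of the 6 swim libraries lay above each of the 3 sedentary ones. The mean was 5.83-fold higher after 4 days, a difference of 2.48 log2 units (SE 0.557), and 5.75-fold higher after 10 days, a difference of 2.59 (SE 0.557). After length correction these differences were 1.69 and 2.08. Without the wt sedentary library they were 1.86 and 1.97, and without sedentary library 2 they were 3.08 and 3.19.

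Tef was at 7.41, 7.81 and 5.28 FPKM after 4 days and at 6.38, 8.90 and 6.93 FPKM after 10 days of swimming, against 2.59, 4.54 and 1.82 FPKM in sedentary fibroblasts. It too did not overlap on either day, with differences of 1.02 and 1.12 log2 units (SE 0.233 each), and 1.17 and 1.18 after length correction. Hlf was at 2.97, 2.03 and 1.36 FPKM after 4 days and at 2.83, 4.04 and 2.87 FPKM after 10 days, against 1.05, 2.33 and 0.627 FPKM in sedentary fibroblasts. It overlapped on day 4 and lay above on day 10, by 0.92 log2 units (SE 0.223).

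Arntl was at 0.763, 0.160 and 2.20 FPKM after 4 days and at 1.43, 0.457 and 1.55 FPKM after 10 days of swimming, against 3.36, 0.924 and 5.82 FPKM in sedentary fibroblasts. Its mean was lower by 1.04 log2 units on day 4 and by 0.89 on day 10 (SE 0.452 each), differences that were -0.63 and -0.48 without the wt sedentary library and -1.55 and -1.39 without sedentary library 2. The groups overlapped through sedentary library 2, which is below some swim libraries. The repressors Per1 and Nr1d1 overlapped on both days, with differences of 0.04 and -0.13 log2 units for Per1 and 0.11 and -0.28 for Nr1d1 (-0.24 and -0.53 after length correction). Cry2, a repressor of the CLOCK and ARNTL pair, was at 3.18, 2.97 and 2.88 FPKM after 10 days against 2.25, 2.43 and 1.39 FPKM in sedentary fibroblasts, without overlap. Nr1d2 lay below on day 4 only, at 8.40, 5.07 and 8.16 FPKM against 12.3, 11.8 and 9.68 FPKM in sedentary fibroblasts, a difference of -0.60 log2 units that was -0.11 after length correction. Of the 8 members in the fit, 2 lay wholly above and 1 wholly below sedentary fibroblasts on day 4, beside 38.4% and 23.7% of all 9425 genes tested. On day 10, 4 lay above and 0 below, beside 38% and 17.6% of all. The members were chosen on these levels, so nothing is read from those counts.

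Of the other clock pathway genes, 23 of 33 could be tested in fibroblasts, and 4 rose and 6 fell after 4 days of swimming (limma, Benjamini-Hochberg adjusted p under 0.05 over 9425 genes, of which 38.2% rose and 26.3% fell). After 10 days 7 rose and 3 fell, beside 30% and 13.6% of all genes. The median log2 fold change of the 23 was -0.21 on day 4 and 0.13 on day 10, beside 0.13 and 0.14 over all genes. Tsc22d3, the glucocorticoid-induced leucine zipper, was at 20.2, 24.2 and 13.0 FPKM after 4 days and 11.4, 13.9 and 14.4 after 10 days, against 3.32, 7.39 and 6.14 FPKM in sedentary fibroblasts. It rose by 1.62 log2 units on day 4 (SE 0.308, limma adjusted p = 0.00023) and by 1.16 on day 10 (SE 0.308, limma adjusted p = 0.00631). Tspan4, a tetraspanin, rose by 1.77 (limma adjusted p = 1.71e-05) and 1.95 (limma adjusted p = 3.83e-05), which were 0.81 and 1.31 after length correction.

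Klf15, a transcription factor that follows the clock in heart, rose by 0.62 log2 units after 4 days of swimming (limma adjusted p = 0.000392), which was 0.19 after length correction (adjusted p = 0.252). Cry1, the paralog of Cry2, rose by 0.66 after 10 days, at 3.51 ± 0.373 FPKM against 1.85 ± 0.136 FPKM in sedentary fibroblasts (SD, n = 3 each; limma adjusted p = 0.014), and without swim library 3 its adjusted p was 0.0534. Coq10b, a coenzyme Q binding protein, rose by 0.82 after 10 days (limma adjusted p = 0.0112), which was 0.53 after length correction (adjusted p = 0.0681). Without sedentary library 2 its adjusted p was 0.0509. Huwe1, a ubiquitin ligase with a long transcript, fell by 1.33 on day 4 (limma adjusted p = 1.79e-06) and by 0.93 on day 10 (limma adjusted p = 0.000147), values of -0.50 and -0.35 after length correction. Clock, the partner of ARNTL, fell by 0.71 on day 10 (limma adjusted p = 0.00078), which was -0.15 after length correction (adjusted p = 0.149). Nampt, which makes an NAD precursor, and Klf9 fell on day 4 by 1.38 and 1.21 (limma adjusted p = 0.00271 and 0.00458), values of -0.89 for both after length correction. After length correction, 4 of the 23 rose and 7 fell on day 4, and 5 rose and 1 fell on day 10. The 6 endothelial markers summed to between 9.71 and 13.0 FPKM after 4 days and between 20.7 and 27.8 FPKM after 10 days of swimming, against 41.001 to 55.8 FPKM in sedentary fibroblasts, and none was at 0. The part of those cells and of the length trend in these values was not tested.

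At 3 days after TAC, Hlf, Per1, Per2, Per3, Cry2 and Nr1d2 lay below their levels after sham at the same time, and the other members overlapped. Per2 was at 0.164, 0.257 and 0.150 FPKM 3 days after TAC, against 0.982 and 1.26 FPKM after sham, a mean 5.89-fold lower. Per3 was at 0.0275, 0.0438 and 0.0470 FPKM, against 0.159 and 0.342 FPKM after sham. Both were below without overlap, and both are low genes that stayed outside the fit, so neither has a length-corrected value. They have the longest transcripts of all members, at 5833 and 5999 bases. Expression fell more steeply with length in these TAC libraries than after sham, and the part of that trend was not tested. Nr1d2 was at 5.14, 5.57 and 3.85 FPKM 3 days after TAC, against 12.9 and 9.48 FPKM after sham, a difference of -1.05 log2 units (SE 0.253) that was -0.44 after length correction. Hlf was at 0.588, 0.749 and 0.937 FPKM against 1.42 and 1.72 FPKM after sham, a difference of -0.55 (SE 0.249) that was 0.08 after length correction. Per1 and Cry2 also lay below without overlap, by 0.33 (SE 0.218) and 0.42 (SE 0.184) log2 units.

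Dbp was at 3.67, 4.73 and 8.61 FPKM 3 days after TAC, against 3.35 and 3.70 FPKM after sham, and the groups overlapped. Its difference of 0.49 log2 units (SE 0.623) was -0.24 after length correction. Arntl was at 1.88, 2.98 and 1.38 FPKM 3 days after TAC, against 4.89 and 2.40 FPKM after sham, also with overlap. Tef and Nr1d1 overlapped as well, with differences of -0.19 (SE 0.26) and 0.29 (SE 0.274), which were -0.04 and -0.06 after length correction. Among the 8 in the fit, 0 lay above sham and 4 below, beside 38.6% and 34.2% of all 9425 genes.

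Of the 23 other pathway genes, 1 rose and 12 fell 3 days after TAC against sham (limma adjusted p under 0.05), beside 31.3% and 25.8% of all genes. Their median log2 fold change was -0.55, beside 0.05 over all genes. After length correction, 0 rose and 10 fell. Klf9, a Kruppel-like factor, was at 2.50, 2.34 and 1.98 FPKM 3 days after TAC, against 11.0 and 13.54 FPKM after sham, and fell by 2.02 log2 units (SE 0.373, limma adjusted p = 0.000248). Nampt was at 3.60, 4.95 and 3.00 FPKM against 18.2 and 12.7 FPKM after sham, and fell by 1.76 (SE 0.395, limma adjusted p = 0.00124), which was -1.12 after length correction. Huwe1 fell by 1.51 (SE 0.165, limma adjusted p = 3.27e-06) and kept a lower value of -0.63 after length correction (adjusted p = 0.000158). Clock was at 0.416, 0.509 and 0.333 FPKM against 2.05 and 2.15 FPKM after sham, and fell by 1.13 (SE 0.156, limma adjusted p = 1.84e-05), yet was at -0.09 after length correction (adjusted p = 0.399). Tspan4 rose by 1.01 (limma adjusted p = 0.00612), which was 0.18 after length correction (adjusted p = 0.558). Without sham library 2, 7 of the 23 passed. The leukocyte markers summed to between 178 and 311 FPKM 3 days after TAC, against 420 to 970 FPKM after sham. Fibroblast markers summed to between 536 and 815 FPKM 3 days after TAC, against 1109 and 1367 FPKM after sham. The part of these cells in the values was not tested.

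At 10 days after TAC, Dbp was at 8.56, 18.4 and 24.9 FPKM, against 4.00, 10.1 and 1.04 FPKM in sedentary fibroblasts. The groups overlapped through TAC library 1 and sedentary library 2. The mean was 3.42-fold higher, a difference of 1.80 log2 units (SE 0.557) that was 0.91 after length correction, 1.18 without the wt sedentary library and 2.40 without sedentary library 2. Tef was at 4.19, 5.69 and 5.50 FPKM, against 2.59, 4.54 and 1.82 FPKM in sedentary fibroblasts, also with overlap, a difference of 0.67 (SE 0.233). Nr1d2 was at 4.78, 5.71 and 3.30 FPKM, against 12.3, 11.8 and 9.68 FPKM in sedentary fibroblasts, without overlap, a difference of -1.15 (SE 0.226) that was -0.60 after length correction. The other members overlapped, with Arntl at 2.22, 1.83 and 0.882 FPKM. In the fit 0 of the 8 lay above and 1 below, beside 38.8% and 25.8% of all genes.

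Of the 23 other pathway genes, 2 rose and 8 fell 10 days after TAC, beside 38.8% and 27% of all genes at the same threshold. After length correction, 3 rose and 10 fell. Their median was -0.38, beside 0.12 over all genes. Tsc22d3 rose by 1.23 log2 units (SE 0.308, limma adjusted p = 0.00223), at 14.1 ± 2.53 FPKM against 5.62 ± 2.09 FPKM in sedentary fibroblasts (SD, n = 3 each). Tspan4 rose by 1.20 (limma adjusted p = 0.000602), which was 0.25 after length correction (adjusted p = 0.331). Nampt fell by 1.93 (SE 0.353, limma adjusted p = 0.000175) and Huwe1 by 1.28 (SE 0.148, limma adjusted p = 2.76e-06), which was -0.59 for Huwe1 after length correction. Por, the electron donor of cytochrome P450 enzymes, was at 8.19, 9.20 and 5.38 FPKM 10 days after TAC, against 25.2, 15.3 and 33.9 FPKM in sedentary fibroblasts, and fell by 1.55 (SE 0.338, limma adjusted p = 0.000775). Klf9 fell by 1.25 (SE 0.333, limma adjusted p = 0.00351). Pericyte and smooth muscle markers summed to between 57.3 and 71.7 FPKM 10 days after TAC, against 37.9 to 48.0 FPKM in sedentary fibroblasts, and their part in these values was not tested.

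At 5 days after MI the PAR bZIP genes, Per1 and Nr1d1 had their lowest group means. Dbp was at 1.63 and 0.506 FPKM after MI, against 4.00, 10.1 and 1.04 FPKM in sedentary fibroblasts. The MI libraries lay below 2 sedentary libraries and on either side of the wt one, the only dated sedentary fibroblast library. The difference was -1.28 log2 units (SE 0.623), and -0.68 without sedentary library 2. Hlf was at 0.531 and 0.189 FPKM, against 1.05, 2.33 and 0.627 FPKM in sedentary fibroblasts, without overlap, a difference of -0.73 (SE 0.249) that was -0.44 without sedentary library 2. Nr1d1 was at 10.2 and 4.47 FPKM, against 17.3, 18.5 and 11.0 FPKM in sedentary fibroblasts, without overlap, a difference of -1.06 (SE 0.274) that was -0.55 without MI library 2 and -1.57 without MI library 1. Arntl was at 5.97 and 2.87 FPKM, against 3.36, 0.924 and 5.82 FPKM in sedentary fibroblasts, with overlap. Tef, Per1, Per2, Per3, Cry2 and Nr1d2 overlapped too. Counting the 8 in the fit, 0 lay above and 2 below, beside 30.4% and 10.1% of all genes. The 6 leukocyte markers summed to 517 and 521 FPKM after MI, against 286 to 344 FPKM in sedentary fibroblasts. Fibroblast markers summed to 1365 and 1597 FPKM, against 818 to 1043 FPKM. Pericyte and smooth muscle markers summed to 55.1 and 67.1 FPKM, against 37.9 to 48.0 FPKM. Endothelial markers were lower, at 30.1 and 36.3 FPKM, against 41.001 to 55.8 FPKM. The part of these cells in the values was not tested.

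Of the 23 other pathway genes, 0 rose and 1 fell after MI, beside 8.93% and 2.34% of all genes (limma adjusted p under 0.05), and 3 had an unadjusted p under 0.05, as did 24.3% of all genes. After length correction, 0 rose and 2 fell. Klf15 was at 0.339 and 0.178 FPKM after MI, against 0.609, 0.857 and 0.708 FPKM in sedentary fibroblasts, and fell by 0.46 log2 units (SE 0.14, limma adjusted p = 0.0442). The call was lost without any single library of either group, with adjusted p between 0.0617 and 0.418. The median of the 23 was -0.07, beside 0.10 over all genes. Both MI libraries carry a date. Only 1 sedentary fibroblast library does, and its date is not that of the MI libraries. With it as the only sedentary library, assumed to vary like the other groups, Klf15 was at -0.44 (limma adjusted p = 0.222) and 0 of the 23 passed. In the same fit Dbp differed by -0.035 log2 units (SE 0.652), Hlf by -0.27 (SE 0.268) and Nr1d1 by -0.62 (SE 0.345).

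At 3 days after sham, Cry2 was the only member whose libraries did not overlap those of sedentary fibroblasts. It was at 3.15 and 2.58 FPKM after sham against 2.25, 2.43 and 1.39 FPKM in sedentary fibroblasts. Per2 was at 0.982 and 1.26 FPKM after sham, against 0.459, 0.989 and 0.212 FPKM in sedentary fibroblasts, 2.03-fold higher in the mean with overlap. Nr1d1 was at 11.7 and 7.62 FPKM, against 17.3, 18.5 and 11.0 FPKM, with overlap and a difference of -0.64 log2 units (SE 0.274), which was -0.36 without sham library 2. In the fit 1 of the 8 lay above and 0 below, beside 14% and 3.78% of all genes. Of the 23 other pathway genes, 0 passed limma's test in either direction, beside 0.0212% of all genes that rose and 0% that fell. At an unadjusted p under 0.05 there were 2 of the 23 and 6.86% of all genes. Their median was 0.25, beside 0.09 over all genes. Leukocyte markers summed to 420 and 970 FPKM after sham, against 286 to 344 FPKM in sedentary fibroblasts. Endothelial markers summed to 15.8 and 28.5 FPKM, against 41.001 to 55.8 FPKM, and fibroblast markers to 1109 and 1367 FPKM, against 818 to 1043 FPKM. Their part in these values was not tested.

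**Figure D3:**
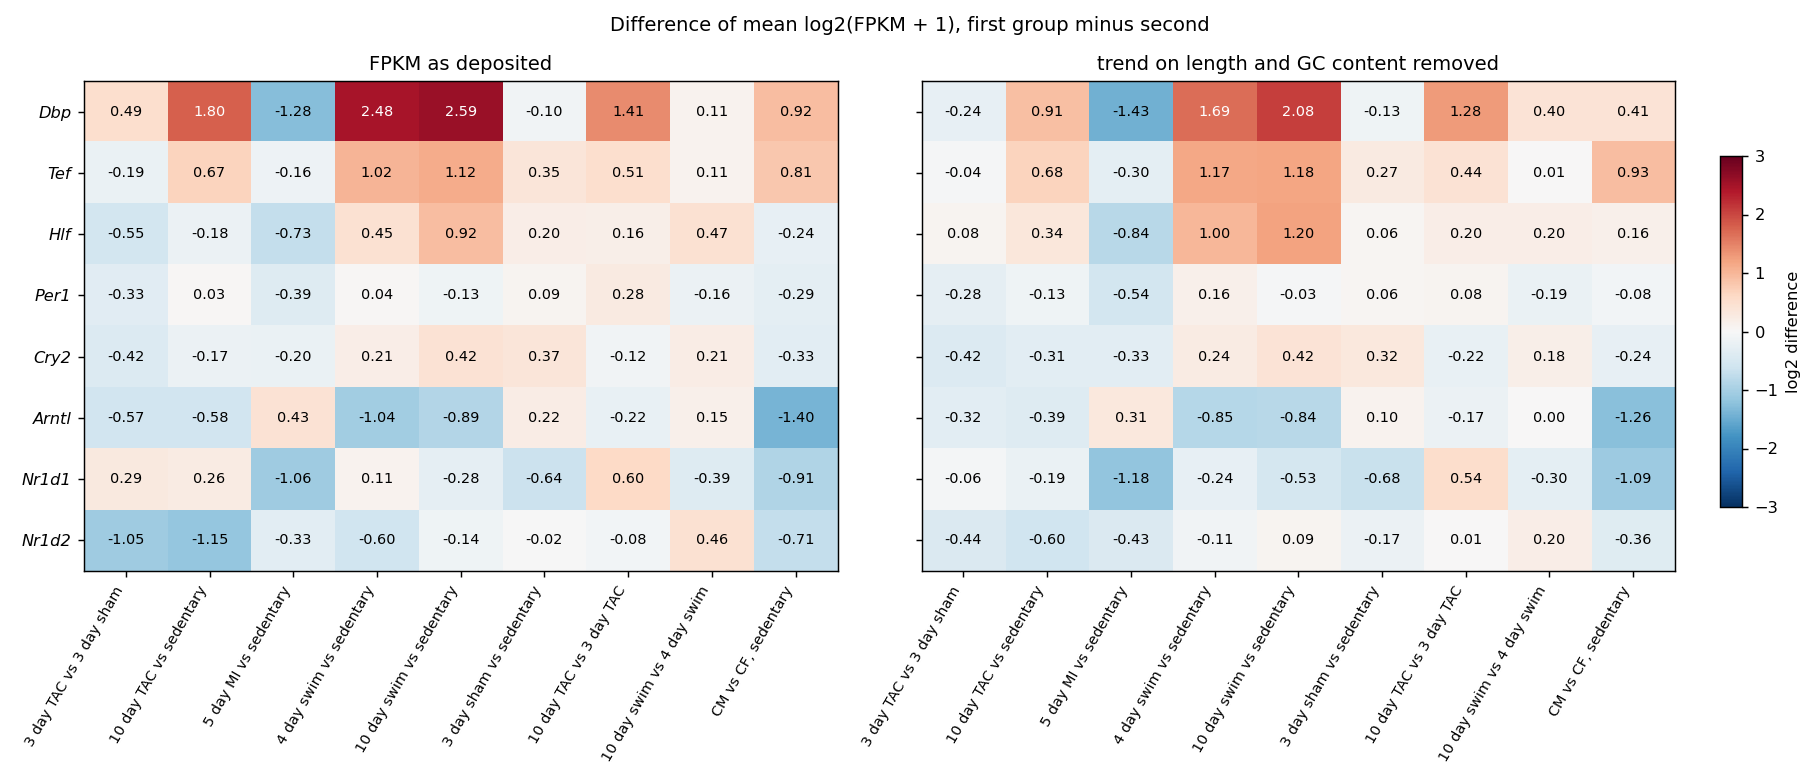
Differences of mean log2(FPKM + 1) for the 8 clock genes in the fit (rows) in 9 comparisons (columns), first group minus second, as deposited on the left and after length correction on the right. Dbp is 2.48 and 2.59 higher after 4 and 10 days of swimming, and 1.69 and 2.08 higher after length correction, while Hlf 3 days after TAC is at -0.55 on the left and 0.08 on the right.

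Within each intervention the later day was set against the earlier one, among the TAC and swim libraries, where expression fell more steeply with length. That fall overlapped between the TAC days but not between the swim days. At 10 days after TAC, Nr1d1 was at 19.3, 19.1 and 17.0 FPKM, against 12.8, 10.7 and 12.006 FPKM at 3 days, 1.56-fold higher without overlap. Per3 was 3.42-fold higher, at 0.0783, 0.199 and 0.128 FPKM against 0.0275, 0.0438 and 0.0470 FPKM at 3 days, and Tef and Per1 also lay above. Dbp was 3.05-fold higher at 10 days with overlap by 1 pair of libraries, 8.56 against 8.61 FPKM. Cry2 lay below, by 0.12 log2 units (SE 0.165). Among the 8 in the fit, 3 lay above and 1 below, beside 14.2% and 16.1% of all genes. Of the 23 other pathway genes, 0 rose and 1 fell, beside 4.42% and 2.18% of all genes, and 2 had an unadjusted p under 0.05, as did 22% of all genes. Por was at 8.19, 9.20 and 5.38 FPKM at 10 days, against 18.8, 26.2 and 12.4 FPKM at 3 days, and fell by 1.20 log2 units (SE 0.338, limma adjusted p = 0.0427). Without any one of 5 of the 6 libraries the adjusted p of Por lay between 0.0654 and 0.168, and without 3 day library 3 the call held. The median of the 23 was -0.16, beside -0.02 over all genes. Endothelial markers summed to between 33.9 and 81.7 FPKM at 10 days, against 7.58 to 22.7 FPKM at 3 days, and pericyte and smooth muscle markers to between 57.3 and 71.7 FPKM, against 39.1 to 46.5 FPKM. Neither sum overlapped, and their part in these values was not tested.

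After 10 days of swimming Nr1d1 was at 13.7, 11.7 and 11.999 FPKM, against 20.2, 15.5 and 14.6 FPKM after 4 days, 0.742 times as high and without overlap. Nr1d2 lay above, at 11.6, 8.51 and 10.3 FPKM against 8.40, 5.07 and 8.16 FPKM after 4 days, a difference of 0.46 log2 units (SE 0.226) that was 0.20 after length correction and 0.25 without 4 day library 2. Per2 lay above as well, at 0.542, 0.529 and 0.660 FPKM against 0.506, 0.333 and 0.181 FPKM. Dbp, Tef, Hlf, Per1, Per3, Cry2 and Arntl overlapped between the 2 days. For Hlf the difference was 0.47 log2 units, and 0.20 after length correction. The slope of expression on length differed between these days. It was -0.505, -0.612 and -0.541 log2 units per doubling after 10 days, and -0.625, -0.847 and -0.688 after 4 days. Per2, outside the fit, has no length-corrected value. Counting the 8 in the fit, 1 lay above and 1 below, beside 10.7% and 16.9% of all genes. Of the 23 other pathway genes, 0 passed limma's test, beside 0.0106% of all genes that rose and 0.308% that fell. At an unadjusted p under 0.05 there were 6 of the 23 and 23.9% of all genes. Their median was 0.32, beside 0.01 over all genes. The sum of the endothelial markers lay between 20.7 and 27.8 FPKM after 10 days, against 9.71 to 13.0 FPKM after 4 days. It did not overlap, and the part of those cells in these values was not tested.

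Sedentary cardiomyocytes differed from sedentary fibroblasts most in Arntl. It was at 0.421, 0.166 and 0.874 FPKM in cardiomyocytes, against 3.36, 0.924 and 5.82 FPKM in fibroblasts, 6.92-fold lower in the mean and without overlap, a difference of -1.40 log2 units (SE 0.442). Nr1d1 was at 9.04, 8.89 and 5.62 FPKM in cardiomyocytes, against 17.3, 18.5 and 11.0 FPKM in fibroblasts, and Nr1d2 at 6.17, 8.93 and 4.79 FPKM against 12.3, 11.8 and 9.68 FPKM, both without overlap. Tef lay above, at 4.88, 7.27 and 5.15 FPKM in cardiomyocytes against 2.59, 4.54 and 1.82 FPKM in fibroblasts, a difference of 0.81 (SE 0.23). Dbp was 2.08-fold higher in the mean with overlap, and Hlf, Per1, Per2, Per3 and Cry2 overlapped too. Within each mark of the titles Dbp was higher and Arntl lower in the cardiomyocyte library. In the fit 1 of the 8 lay above and 3 below, beside 39.1% and 39.3% of 10371 genes tested over all 22 libraries.

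Of the other pathway genes, 25 could be tested between the cell types, and 4 rose and 14 fell in cardiomyocytes, beside 38.7% and 38.6% of all genes (limma adjusted p under 0.05). After length correction, 6 rose and 12 fell. Usp2, a deubiquitinase, was at 4.71, 6.65 and 4.31 FPKM in cardiomyocytes against 0.380 ± 0.153 FPKM in fibroblasts (SD, n = 3), and rose by 2.16 (SE 0.133, limma adjusted p = 1.03e-11). Klf15 rose by 1.85 (limma adjusted p = 4.34e-11) and Alas1, the first enzyme of haem synthesis, by 1.76 (limma adjusted p = 3.17e-07). Bhlhe40, a repressor at E-boxes, was at 4.71 ± 0.634 FPKM in cardiomyocytes and 30.5 ± 15.5 FPKM in fibroblasts (SD, n = 3 each), and fell by 2.34 (SE 0.319, limma adjusted p = 1.51e-06). Por fell by 2.33 (limma adjusted p = 2.02e-06) and Coq10b fell by 1.75 (limma adjusted p = 7.98e-07). Ccrn4l, which encodes nocturnin, fell by 1.89 (limma adjusted p = 8.8e-07). The 6 markers of pericytes and smooth muscle summed to between 269 and 346 FPKM in cardiomyocytes, against 37.9 to 48.0 FPKM in sedentary fibroblasts. This list holds Des, which cardiomyocytes also express, so the sum does not measure pericytes or smooth muscle in cardiomyocyte libraries. The part of other cells in these values was not tested. The median of the 25 was -0.50, beside -0.05 over all genes.

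The remaining 8 pathway genes were under the filter in every comparison. They were Npas2 and Arntl2, paralogs of Clock and Arntl, with Rorb, Timeless, Fbxl21, Btrc, Wee1 and Hif3a. The highest level of any of them was 1.07 FPKM, for Wee1, a kinase of the cell cycle under clock control.

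**Figure D4:**
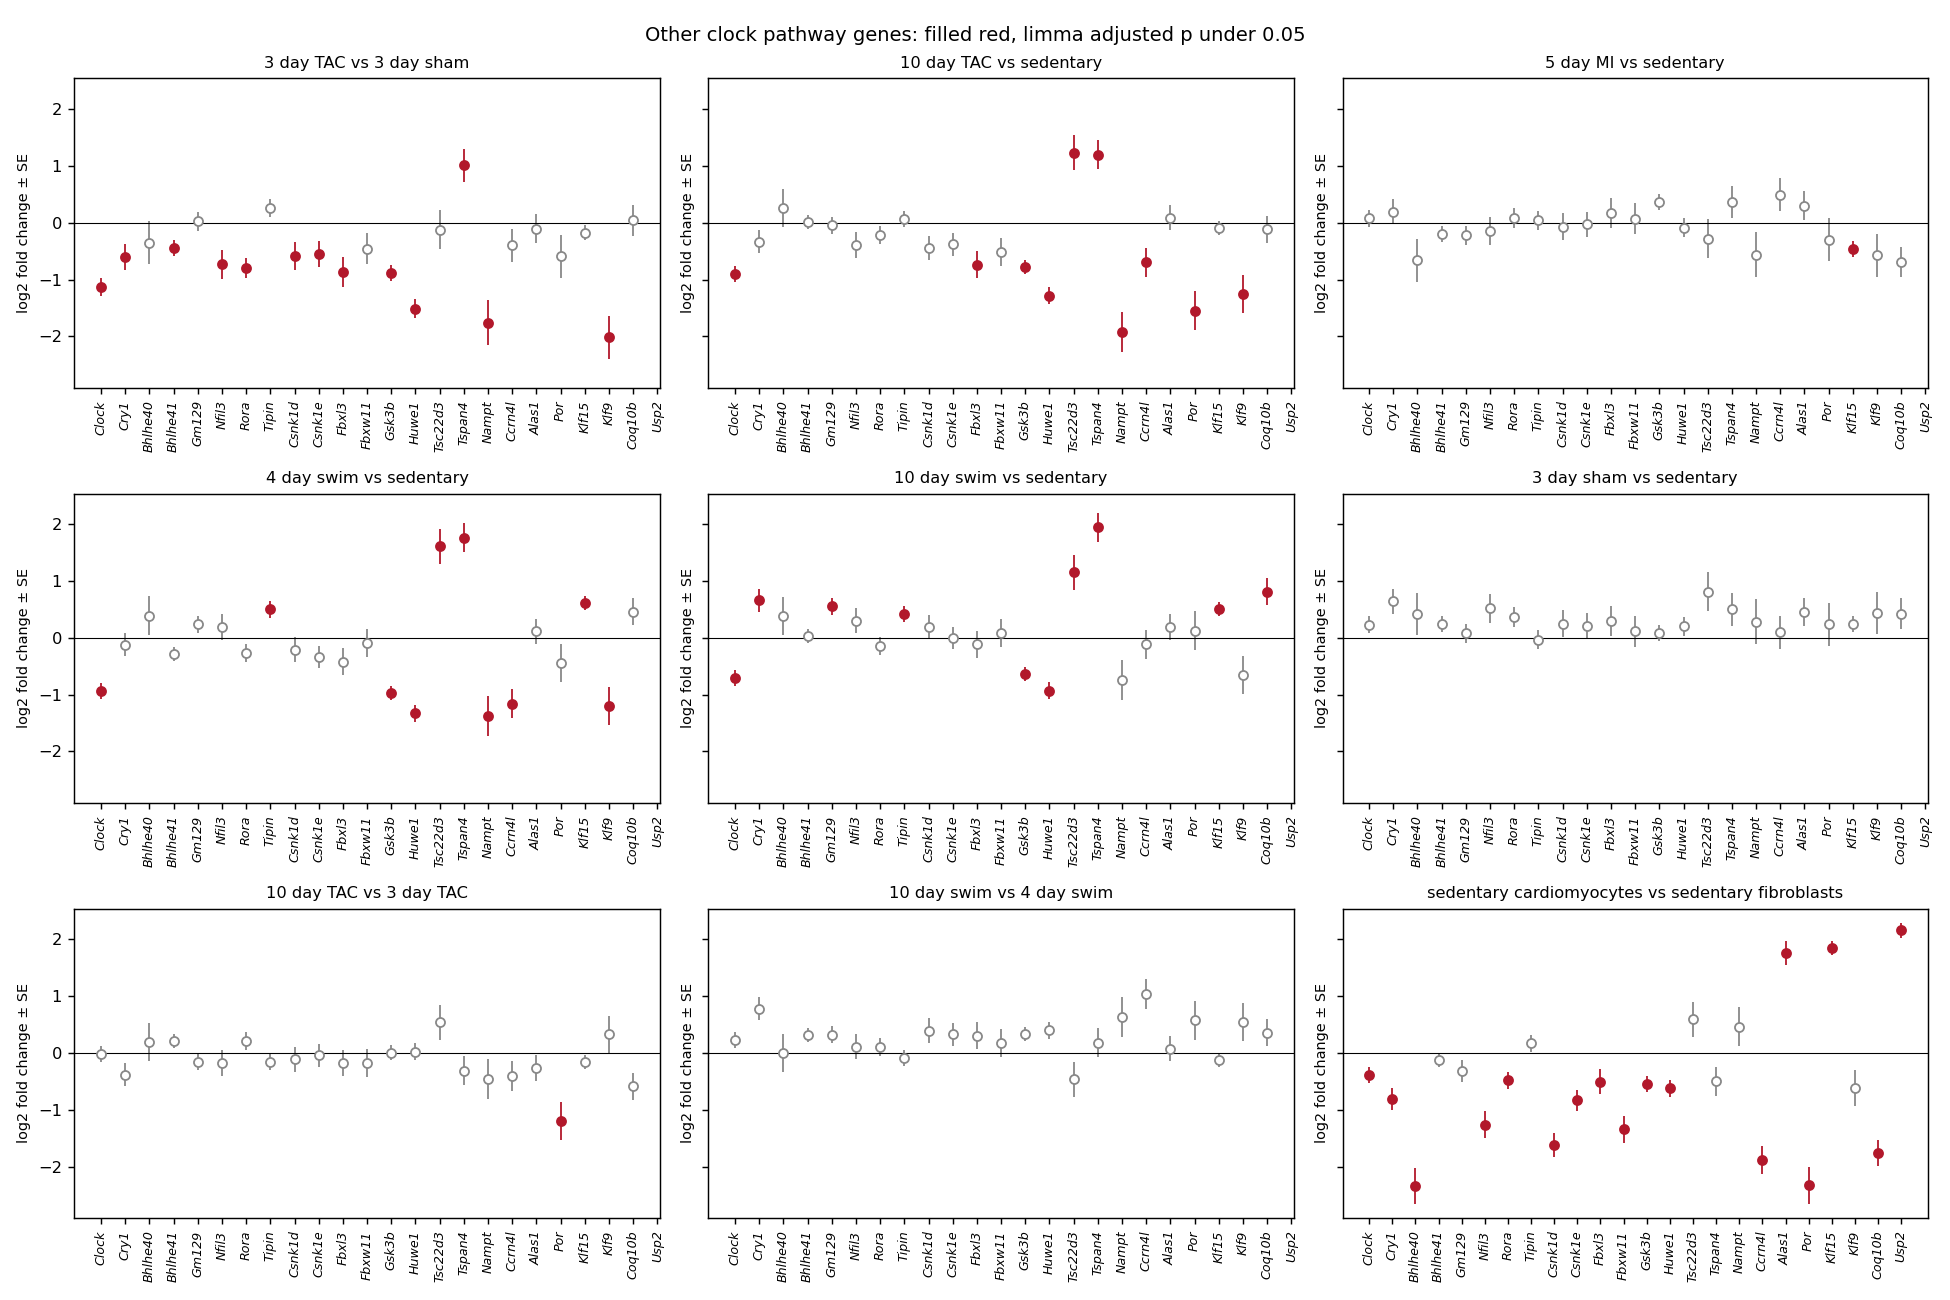
Log2 fold changes with SE of the other clock pathway genes in 9 comparisons, first group over second, with filled red points for limma adjusted p under 0.05. Most red points in the panel of cardiomyocytes against fibroblasts, where Usp2 alone of the genes drawn had no test elsewhere, lie below 0, while 0 genes passed for sham against sedentary and for 10 against 4 days of swimming.

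Libraries of one group also differed from each other in a shared pattern. Deviations of log2(FPKM + 1) from the group mean were correlated over the 19 fibroblast libraries for all 45 pairs of the 10 genes, given without p because the genes were chosen on these levels. The points share libraries and their depth, and the sets below were formed after the values were seen. Dbp, Tef, Hlf, Per1, Per2 and Per3 deviated together, with Pearson's r between 0.72 and 0.90 for their 15 pairs (Spearman's rho between 0.46 and 0.86). Without the 2 libraries farthest from the median of the first gene, r lay between 0.32 and 0.81. Arntl deviated against all 6, with r between -0.80 and -0.54, and between -0.66 and -0.11 without the 2 farthest libraries. Cry2, Nr1d1 and Nr1d2 deviated together, with r between 0.64 and 0.86. For Dbp and Arntl r was -0.78 and rho -0.69, and r was -0.63 without the 2 farthest libraries and -0.69 after length correction.

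The ratio of Dbp to Arntl, without length correction, put each library on a single scale. It was 304.6 in the 4 day swim library 2 and 117.5 in cardiomyocyte library 2, the highest 2 of the 22, and 0.176 in MI library 2 and 0.178 in the wt sedentary fibroblast library, the lowest 2. The 6 swim libraries ranked between 1 and 11 of 22 from the top. The sedentary fibroblasts were spread over ranks 9, 18 and 21. In the 2 libraries with the highest ratio Arntl was low, at 0.160 and 0.166 FPKM. Arntl has a longer transcript than Dbp, 3995 against 1837 bases. Expression fell more steeply with length in the TAC, swim and cardiomyocyte libraries, and the part of that trend in the ratio was not tested.

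**Figure D5:**
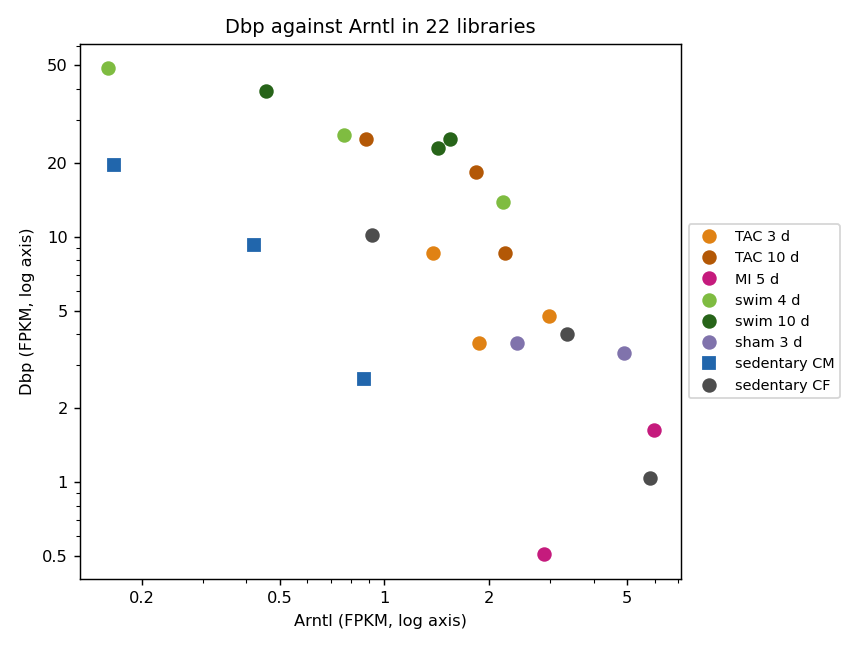
Dbp against Arntl in FPKM on log axes in the 22 libraries, coloured by group, with squares for cardiomyocytes. Libraries with more Arntl tend to have less Dbp, with exceptions, and the 3 sedentary fibroblast libraries run from 10.1 FPKM of Dbp at 0.924 of Arntl to 1.04 at 5.82.

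Genes with a pattern like that of Dbp or Arntl were sought by Pearson's r between means of log2(FPKM + 1) over the 8 groups, among genes of at least 5 FPKM in their highest group. Nearest to Dbp of 4959 genes were Rnf167 (r = 0.963), Cdkn1c (0.953), Gstt2 (0.946), AW112010 (0.946) and Ube2e3 (0.943), each lowest after MI. Nearest to Arntl of 4960 genes were Zmiz1 (r = 0.974), Acp5 (0.973), Arpc1b (0.968), Adamts4 (0.968) and Piezo1 (0.967), each highest after MI and lowest in cardiomyocytes. Over the same 8 groups the r of Dbp was 0.931 with Tef and -0.792 with Arntl. With 8 points and so many genes, values of this size are a description only.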

How the data were processed

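Per the labels' protocols, poly-A RNA was extracted from heart cells with a column kit and made into stranded libraries. Per the submitters' processing notes, Cufflinks 2.0.2 and mm10 were used. No source used here names the aligner or the annotation. FPKM per gene and library are the authors' deposited values, with lower and upper confidence bounds in 44 columns, used here only for their ratio to the value. The authors' 2 deposited comparison tables were not used. Of 23359 rows, 4 share a symbol with another row and were told apart by locus.

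Expression, as log2(FPKM + 1), went into limma 3.58.1 (R 4.3.3; trend and robust options) with group means and no covariate, keeping genes that reached 1 FPKM in 2 or more libraries. One fit covered the 19 fibroblast libraries (9425 genes). A second covered all 22 (10371 genes) for cardiomyocytes against fibroblasts. Calls are two-sided at a Benjamini-Hochberg adjusted p under 0.05 over all genes tested. The added 1 pulls folds of low genes toward 0. Length and GC content, from GENCODE M21 for 22969 genes, were corrected with splines of 4 degrees of freedom in each library.

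The members, the 2 pathway lists (21 regulators, 12 outputs), the marker lists and the tests were chosen with earlier results of these data known. All members were named. Of the pathway lists, up to 4 called genes with the largest rise and 4 with the largest fall could be named in each comparison, and for Dbp and Arntl the 5 genes most like them. A few values outside that rule, such as a gene's per-library level, were chosen after seeing them. Sedentary libraries 1 and 2 are numbered by their titles, the wt library is number 3, and other libraries are numbered in accession order. Alternatives were another pseudocount, no filter, scaling to a common median, the length and GC correction, leaving out each library, only dated libraries for MI and sedentary, and a block for title marks. For 1 pathway gene, included in the counts, values are not reported or drawn here. Absolute depth is unknown, so no counting interval is given.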

Additional observations from a re-analysis of the deposited data

Results flagged for a closer look

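Nr1d1, the REV-ERB alpha repressor, moved in opposite directions over time in the TAC and swim groups. Its mean 10 days after TAC was 1.56 times that at 3 days, with every 10 day library above every 3 day library. After 10 days of swimming its mean was 0.742 times that at 4 days, with every 10 day library below every 4 day library. The difference between these effects was not tested, since Nr1d1 was chosen on these levels and the early days differ between the interventions. The opposite directions held after length correction (0.54 and -0.30 log2 units). Leaving out a single library could not reverse them, since the libraries of the days did not overlap. The gene was found by a search of the members and the other pathway genes for such opposite movement without overlap.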

How the results depend on the processing

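Of the refits of the members' differences under the alternatives, 681 moved by less than the replicate spread, 38 moved by more and 1 without overlap of libraries reversed. The alternatives were unlike in this. Scaling to a common median moved 0 and left 72. No filter also moved 0 and left 72, but a member's difference rests on its own values, so this was fixed in advance. The same holds for the fits of the 6 sedentary libraries with and without a block, which left 8 each. Length correction moved 12, reversed 1 and left 59. The fit with only dated libraries for MI and sedentary moved 7 and left 1. Differences with overlap also changed sign, as Dbp 3 days after TAC did (0.49, and -0.24 after length correction). The reversed one was Hlf 3 days after TAC against sham, at 0.077 after length correction and -0.55 without the correction. Of the refits of named pathway genes, 347 stayed on their side of the threshold and 24 lost the call. For MI against sedentary, 0 pathway genes passed with no filter, 2 with libraries scaled to the same median and 2 after length correction and 0 with only dated libraries of both groups (chosen after seeing the data), beside 1. For 10 day swim against sedentary 6 passed after length correction, beside 10, and for 10 against 3 day TAC 0 passed with no filter, beside 1. Leaving out single libraries gave 7 to 10 for 3 day TAC against sham (beside 13), 8 to 11 for 10 day TAC, 0 to 1 for MI, 10 to 12 for 4 day swim, 8 to 10 for 10 day swim, 0 to 1 for sham, 0 to 1 for 10 against 3 day TAC, 0 to 2 for 10 against 4 day swim, and 16 to 19 for cardiomyocytes. Where that left 1 sham or MI library, it was assumed to vary like the other groups. The causes were not tested.

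Cardiomyocyte and fibroblast libraries of the same title mark had correlations of their deviations of 0.23, 0.31 and 0.07 over 10371 genes. Every cardiomyocyte library correlated best with its own mark, but the wt fibroblast library did not (0.08 with cardiomyocyte library 1). The wt libraries also share the date in their titles. Whether libraries of the same mark came from the same mice is not given. With a replicate block over the 6 sedentary libraries 21 of 25 pathway genes passed, and 19 without the block (this second fit was chosen after seeing the data), beside 18 over all 22 libraries. Depth is unknown, which limits what can be said of Per2 and Per3, both mostly under 1 FPKM.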
